A study of Homo sapiens with 6 samples.

Results

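Cytosolic ribosomal proteins were followed by their messenger RNA in 786-O cells, an established human clear cell renal cell carcinoma line, with and without overexpression of OGT. OGT adds the sugar N-acetylglucosamine to serines and threonines of nuclear and cytosolic proteins. Genes were chosen by name: 81 of the 62703 genes in the deposited table carry a symbol of the RPL, RPS, RPLP or RPSA form with no pseudogene suffix, and 78 of them reached at least 1 TPM in at least 3 of the 6 libraries. TPM is a transcript level scaled for length and for the library total, so levels can be set side by side between genes. The design held 2 groups of 3 libraries of total RNA: control cells, titled NC with the genotype given as WT, and cells with the genotype given as OGT overexpressed. Medium and serum were the same in both groups. The sources used here give neither the vector and its promoter nor whether either line was a clone or a pool. They also do not say that replicates were separate cultures, so p-values measure only how far these libraries differ, and that spread may be technical.

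The cytosolic ribosome has a small 40S subunit, which reads the messenger RNA, and a large 60S subunit, which joins amino acids and holds the exit tunnel for the new chain. Its proteins are present in nearly equal numbers in a finished ribosome, and their messages are among the most abundant in growing cells. These messages are known for a TOP tract, a run of pyrimidines that starts with C at the first transcribed base, through which mTOR signalling and LARP1 control their translation and stability. Some ribosomal proteins have known roles outside the ribosome, such as the binding of MDM2 by RPL5 and RPL11 when ribosome assembly is disturbed.

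The start regions of members with large falls and rises are shown first. The TOP tract is what these genes are best known to share, and both directions of change can be read against it. Each line gives 30 bases before and 20 bases from the annotated start on, 5′ to 3′ on the gene's strand, from RefSeq's GRCh38.p14 table. Capitals mark the unbroken run of C and T that begins with C at the annotated start, and a line without capitals has no such run. Where a gene has several annotated starts, the one with the longest run is shown. The first 6 genes were lower and the next 6 higher with OGT, the largest called changes among members with an entry in RefSeq's table. RPL5 had no entry and is not shown, though it rose more (log2 change 0.86) than RPL21, RPL12 and RPL6. RPS27L is a paralog of RPS27.
RPL9 (chr4:39458903-39458952, minus strand): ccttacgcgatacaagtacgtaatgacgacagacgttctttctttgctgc
RPL15 (chr3:23916515-23916564, plus strand): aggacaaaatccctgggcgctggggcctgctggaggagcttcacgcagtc
RPS29 (chr14:49598691-49598740, minus strand): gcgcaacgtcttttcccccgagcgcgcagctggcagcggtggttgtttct
RPLP1 (chr15:69452788-69452837, plus strand): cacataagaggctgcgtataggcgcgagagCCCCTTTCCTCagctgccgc
RPL35 (chr9:124861938-124861987, minus strand): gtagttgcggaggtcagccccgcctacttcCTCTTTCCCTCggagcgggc
RPL34 (chr4:108620546-108620595, plus strand): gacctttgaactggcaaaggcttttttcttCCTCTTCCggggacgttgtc
RPL11 (chr1:23691776-23691825, plus strand): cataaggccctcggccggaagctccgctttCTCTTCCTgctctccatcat
RPS7 (chr2:3575230-3575279, plus strand): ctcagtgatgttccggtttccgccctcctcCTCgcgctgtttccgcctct
RPS6 (chr9:19380217-19380266, minus strand): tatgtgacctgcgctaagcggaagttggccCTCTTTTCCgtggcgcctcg
RPL21 (chr13:27251528-27251577, plus strand): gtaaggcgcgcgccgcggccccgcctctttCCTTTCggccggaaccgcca
RPL12 (chr9:127451387-127451436, minus strand): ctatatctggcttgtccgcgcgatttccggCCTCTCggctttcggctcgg
RPL6 (chr12:112409266-112409315, minus strand): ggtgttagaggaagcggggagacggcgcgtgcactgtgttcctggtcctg
RPS27L (chr15:63157458-63157507, minus strand): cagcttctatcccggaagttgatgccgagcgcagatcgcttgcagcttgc

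Both sets held genes with and without the tract at the annotated start. RPLP1 and RPL35, which fell, each had a run of 11 pyrimidines, and RPS6 and RPL11, which rose, had runs of 9 and 8. RPS7 rose with a run of 3 letters, and RPL9, RPL15, RPS29 and RPL6 had none at the start shown. The starts used in these cells were not measured, so a gene without a run here may still carry the tract. Of the 63 members found in the promoter table by symbol, 46 had an annotated start that begins with C followed by at least 4 letters that are C or T. By start rather than by gene this was 46 of 78 annotated starts of members (59%), against 4.07% of all 35116 starts in the table. Among members with an entry the tract was present in 11 of 17 called higher, 22 of 26 called lower and 13 of 20 not called. In the window from 100 bases before to 50 bases after the start, searched on both strands, the letters CTTTCC, which can lie inside the tract, were in 39.7% of member starts and 13% of all starts. The letters CCGGAAG, as in binding sites of ETS factors, were in 24.4% against 7.46%, those of TATAAA in 6.41% against 5.99%, and AAGATGG, as in YY1 sites, in 8.97% against 3.45%. These are counts of letters and do not show that a factor binds.

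The OGT message followed the labels, at 23.1 ± 0.525 TPM (SD, n = 3) in control cells and 326 ± 47.3 TPM in overexpressing cells. Each library summed to between 993936 and 996952 TPM, read totals are not recoverable from TPM, and depth is therefore unknown. The renal lineage gene PAX8 (124.78 to 209 TPM) and the filament genes KRT8, KRT18 and VIM were present in every library. Of 10 markers of blood, endothelial, stromal and liver cells none passed the filter. Their summed level was 1.71 to 17.6 TPM in the controls and 2.09 to 3.47 TPM in the OGT libraries, with ALB and CDH5 listed at 0 throughout. The highest sum came from the leukocyte gene PTPRC in control replicate 1 (12.23 TPM, and at most 0.07 in the other 5 libraries). That library also held the highest control value of 56 of the 78 members, and OGT replicate 3 the highest OGT value of 57. Without control replicate 1, 24 members were called higher and 35 lower, and without OGT replicate 3 the counts were 22 and 36, beside 23 and 34 with all libraries.

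The family as a whole took a smaller share of the transcriptome with OGT overexpression, while its single genes moved in both directions. Summed over the 78 members, control libraries held 183464, 176738 and 173500 TPM, and OGT libraries 141701, 143694 and 151626 TPM. All 3 OGT sums lay below all 3 control sums. The members made up 17.9% ± 0.518 of control TPM and 14.6% ± 0.548 of OGT TPM (SD, n = 3). A share of this kind cannot tell less RNA from these genes apart from more RNA from the others, nor fewer cells from less RNA per cell. A sum over chosen members has no test here.

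Much of the drop in the sum came from its most abundant genes. RPL35, RPS2, RPL8, RPL15 and RPS9, the 5 members with the highest control means, added up to 40585.9 ± 279 TPM in control and 24162.7 ± 1105.8 TPM in OGT cells, a ratio of 0.595. The other 73 members together gave a ratio of 0.885. Levels therefore became more even: the coefficient of variation of TPM across the 78 genes was 90.7% to 94.6% in the control libraries and 72.1% to 73.8% in the OGT libraries. Small-subunit members stood at 0.815 of their control sum and large-subunit members at 0.822. The 40S to 60S ratio of summed TPM was 0.7235, 0.7232 and 0.7208 in control and 0.7075, 0.7111 and 0.7289 in OGT libraries, so the groups overlapped.

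Gene by gene, changes are OGT minus control on the log2(TPM + 1) scale, tested with limma over all 12645 genes of at least 1 TPM in at least 3 libraries and adjusted by Benjamini-Hochberg. A gene is called at an adjusted p below 0.05. Of the 78 members 34 fell, 23 rose and 21 were not called, so 73.1% were called against a background of 48.8% of all genes. The background was 39.1% higher and 9.70% lower, and the members stood at 29.5% higher and 43.6% lower. Abundant genes were called more often in general: of the 683 non-members whose mean was 200 TPM or more, 73.9% were called, 246 higher and 259 lower. The median log2 change was -0.12 over the members and 0.30 over all genes tested. It was -0.00 over those 683 abundant non-members. Of 1242 non-members whose principal transcript in GENCODE release 29 is under 1000 bases, 139 rose and 290 fell, with a median of -0.11. Of the 38 members with such a transcript 13 rose and 16 fell, with a median of -0.04. These differences were not tested. With each library centred on the median of its tested genes, 7 members were higher and 59 lower (background 39.6%, of which 15.3% higher and 24.2% lower), and their median was -0.51 where that of all genes was -0.09.

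The 3 OGT libraries lay wholly above the controls for 26 members and wholly below for 37. Among all genes tested 58.6% did not overlap, 46.2% above and 12.4% below. Abundant genes did so more often: of the 683 non-members of 200 TPM or more, 263 lay wholly above and 279 wholly below. A called change of at least 2-fold was found for 6 of the 78 members, RPL9, RPL15 and RPS29 lower and RPL11, RPS7 and RPS6 higher. It was found for 11.9% of all genes, but for only 13 of the 683 non-members of 200 TPM or more. These differences were not tested.

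**Figure D1:**
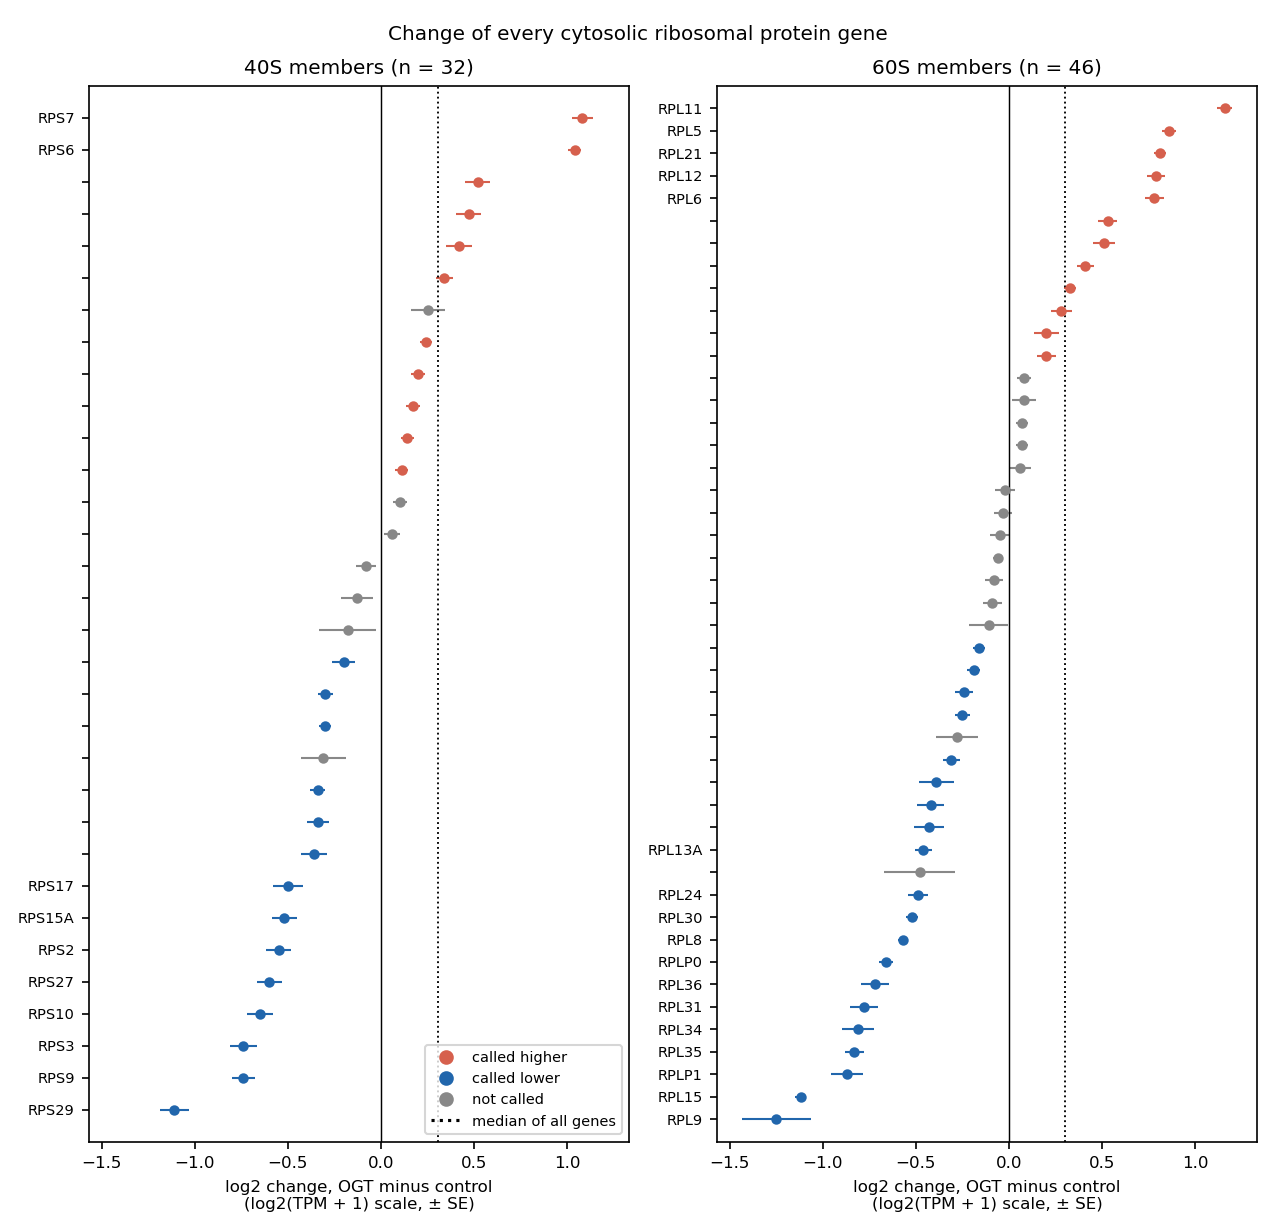
Log2 change (OGT minus control, log2(TPM + 1) scale) of each of the 78 members, with bars of 1 SE, 32 small-subunit genes on the left and 46 large-subunit genes on the right; red points were called higher, blue lower and grey not called, and names are written beside the members called the same way under each of the 23 ways of processing. The members run from -1.25 (RPL9) to 1.16 (RPL11), most of them to the left of the dotted line at 0.30, the median of all genes tested.

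**Figure D2:**
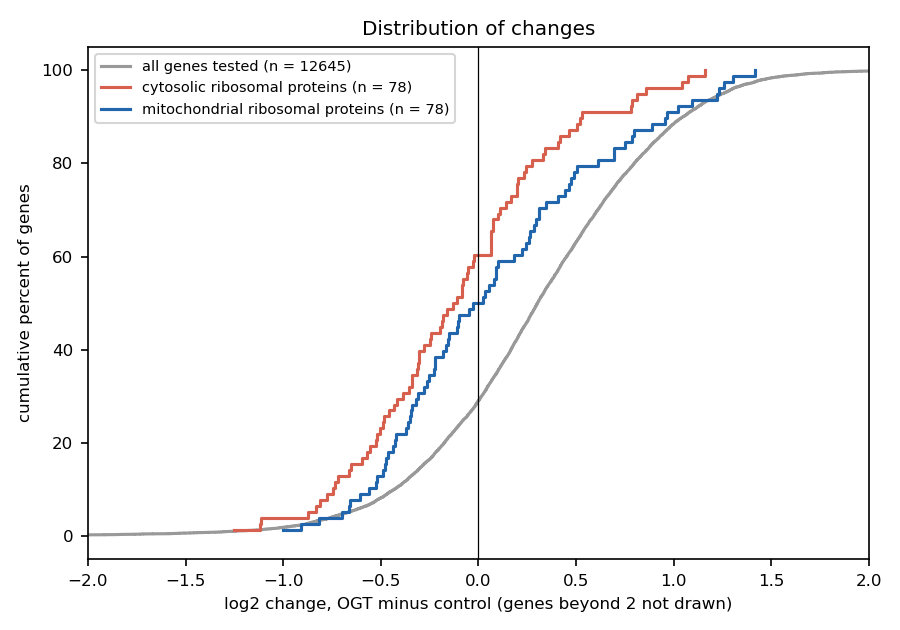
Cumulative percent of genes by log2 change for all 12645 genes tested, the 78 cytosolic and the 78 mitochondrial ribosomal protein genes. Through the middle of the plot both ribosomal curves lie to the left of the curve of all genes, with medians of -0.12 and -0.00 against 0.30.

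Among the small-subunit members 11 rose and 14 fell of 32, and among the large-subunit members 12 rose and 20 fell of 46. In the 40S head 3 of 14 rose and 7 fell with a median log2 change of -0.24. In the 40S body and platform 8 of 17 rose and 7 fell with a median of 0.10. Around the polypeptide exit tunnel 3 of 9 rose and 4 fell. No test of the difference between these regions was made.

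RPL11 and RPL5 carry 5S ribosomal RNA into the 60S subunit and rose together. RPL11 (ENSG00000142676, GENCODE release 29 on GRCh38, chromosome 1, 23691742 to 23696835, plus strand) was 472.32, 454.92 and 451 TPM in control and 989.08, 1029.25 and 1066.55 TPM in OGT libraries. Every OGT library lay far above every control, and RPL11 changed by 1.16 on the log2 scale (SE 0.0403, limma adjusted p = 2.13e-05). RPL5 was 247.47, 249.14 and 242.65 TPM in control and 434.33, 455.56 and 452.73 TPM in OGT libraries, again without overlap (log2 0.86, SE 0.037, limma adjusted p = 3.4e-05). RPL11 moved further than RPL5: the control libraries had RPL5 to RPL11 ratios of 0.524 to 0.548 and the OGT libraries ratios of 0.425 to 0.443.

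RPS6, the 40S protein phosphorylated by the S6 kinases downstream of mTOR, was 491.9, 506.31 and 525.91 TPM in control libraries. In OGT libraries it was 1044.63, 1034.47 and 1059.83 TPM, a 2.06-fold level (log2 1.04, SE 0.0362, limma adjusted p = 2.13e-05). RPS7, a 40S protein also known to bind MDM2, was 344.97, 321.23 and 317.58 TPM in control and 683.13, 657.02 and 739.06 TPM in OGT libraries. Its log2 change was 1.08 (SE 0.056, limma adjusted p = 4.63e-05). The spread within each group was small beside the gap for both genes.

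RPL12, at the base of the ribosomal stalk, started from a higher level: 1339.25, 1420.64 and 1457.7 TPM in control and 2394.23, 2318.28 and 2577.01 TPM in OGT libraries (log2 change 0.79). RPL21 went from 503 ± 10.2 to 884 ± 16.3 TPM (0.81) and RPL6 from 349 ± 14.2 to 603 ± 30 TPM (0.78; SD, n = 3). Both are structural proteins of the 60S subunit. RPL11, RPS7, RPS6, RPL5, RPL21, RPL12 and RPL6 are the 7 members called higher under each of the 23 ways of processing tried. They are also the 7 called higher after median centring.

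The other 16 members that rose did so by less and depended on the scaling. RPL14 (log2 change 0.53), RPS3A (0.52), RPL10A (0.51), RPS24 (0.47), RPS27A (0.42) and RPL7 (0.41) had changes between 0.02 and 0.14 after median centring, and none was then called. RPS27A encodes ubiquitin fused to a 40S protein and was 325 ± 26 TPM in control and 435 ± 24.8 TPM in OGT cells. RPS25 (0.34) and RPL23A (0.33) lay close to the median of all genes. RPL17 (0.28), RPS4X (0.24), RPS13 (0.20), RPL37 (0.20), RPL19 (0.20) and RPS16 (0.14) rose less than that median. After median centring the changes of these last 8 genes were negative, and RPS4X, RPS13 and RPS16 were called lower. RPL37 was the only called member whose groups overlapped, with 2082.16 TPM in control replicate 1 and 2064.99 TPM in OGT replicate 3. It was 1991.55 and 1862.82 TPM in the other controls and 2347.59 and 2398.18 TPM in the other OGT libraries.

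**Figure D3:**
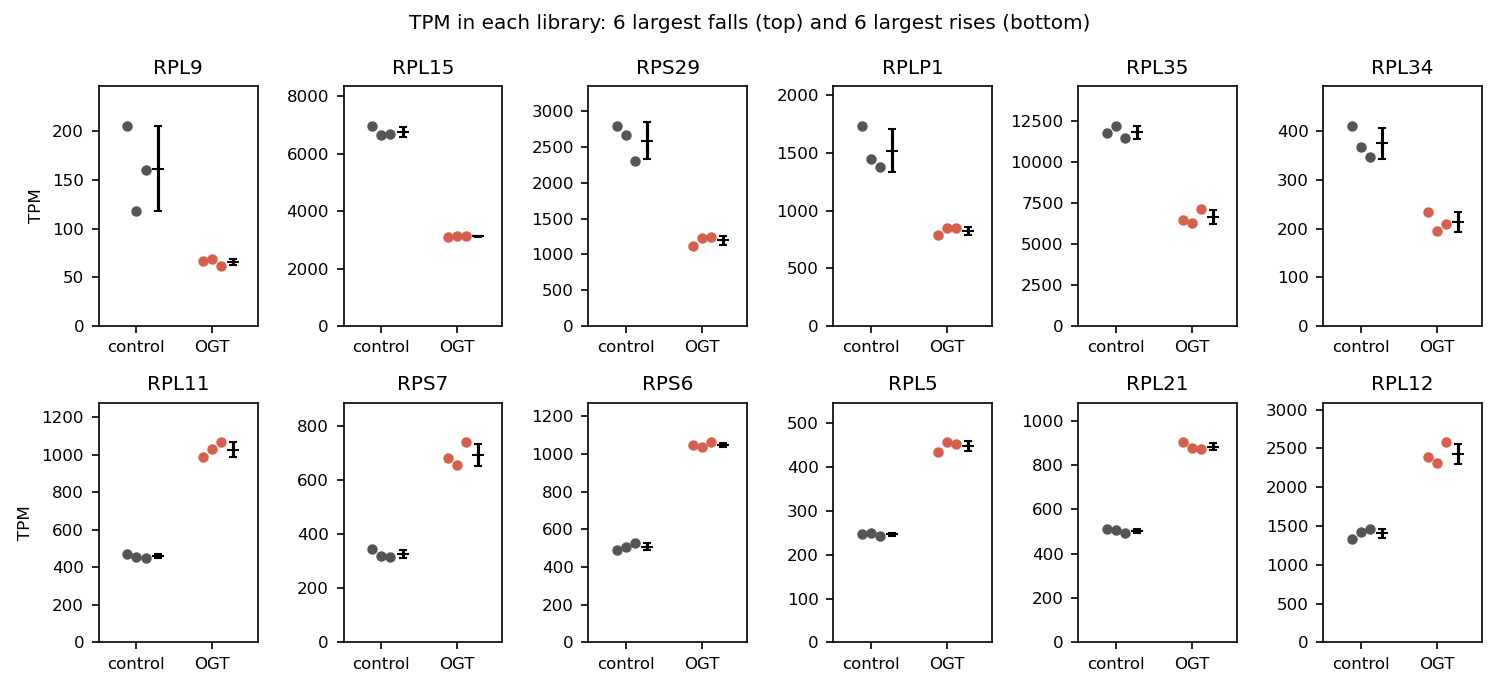
TPM in each library (points, 3 control in grey and 3 OGT in red) with mean and SD (black bars) for the 6 members with the largest called falls, top row, and rises, bottom row; each panel has its own axis from 0. In none of the 12 genes do the groups overlap, and the spread widest for its mean is that of RPL9 in control cells, from 118.25 to 205.31 TPM.

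On the falling side the largest change with little spread was that of RPL15, a protein of the 60S core. RPL15 (ENSG00000174748, chromosome 3, 23916545 to 23924374, plus strand) was 6969.38, 6639.97 and 6697.91 TPM in control and 3089.95, 3142.79 and 3130.76 TPM in OGT libraries. Its log2 change was -1.12 (SE 0.028, limma adjusted p = 1.14e-05). RPS29, a small zinc-binding protein of the 40S head, was 2792.99, 2669.38 and 2300.37 TPM in control and 1118.96, 1223.33 and 1241.68 TPM in OGT libraries (-1.11, SE 0.0776, limma adjusted p = 0.000123). RPL9 was 205.31, 118.25 and 160.59 TPM in control and 66.76, 68.27 and 61.78 TPM in OGT libraries. It had the largest change of all members, -1.25, and the widest error among those called (SE 0.185, limma adjusted p = 0.00202).

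RPL35, which lies at the rim of the exit tunnel, was the most abundant member. It was 11763.1, 12205.04 and 11464.11 TPM in control and 6492.29, 6299.31 and 7128.94 TPM in OGT libraries (log2 change -0.83, SE 0.0496, limma adjusted p = 6.98e-05). No other member reached its level in either group. RPS3, at the messenger RNA entry channel, fell from 4048.6 ± 423 to 2423.7 ± 71.1 TPM (-0.74). RPS9, also near the entry channel, fell from 6118.8 ± 338 to 3655.9 ± 276 TPM (-0.74). RPL34, RPL31, RPL36 and RPS10 had log2 changes of -0.81, -0.78, -0.72 and -0.65, all with libraries that did not overlap. Of the other abundant genes, RPL8 fell from 7784.1 ± 144 to 5238.6 ± 131 TPM (-0.57) and RPS2 from 8103.2 ± 691 to 5506.9 ± 299 TPM (-0.55). In all, 20 members were called lower under each of the 23 ways of processing, among them all 12 of the largest falls.

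The stalk, which recruits the translation GTPases, did not move as a unit. It is built from RPLP0, which anchors it, and pairs of RPLP1 and RPLP2. RPLP1 was 1732.65, 1444.45 and 1379.93 TPM in control and 786.58, 845.53 and 844.99 TPM in OGT libraries (log2 change -0.87, SE 0.0849, limma adjusted p = 0.000353). RPLP0, a gene widely used as a reference in RNA quantification, was 4503.44, 4445.02 and 4476.76 TPM in control and 2721.57, 2781.45 and 2995.59 TPM in OGT libraries (-0.66, SE 0.0393, limma adjusted p = 6.94e-05). RPLP2 was 3028.01, 2774.77 and 2818.9 TPM in control and 2759.51, 2705.79 and 3025.34 TPM in OGT libraries. Its groups overlapped and it was not called (-0.02, SE 0.0532, limma adjusted p = 0.75), and its sign depended on the scaling. The RPLP1 to RPLP2 ratio, which needs no scaling between libraries, was 0.572, 0.521 and 0.490 in control and 0.285, 0.313 and 0.279 in OGT libraries. The RPLP0 to RPLP2 ratio ran from 1.487 to 1.602 in control and from 0.986 to 1.028 in OGT libraries.

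Members whose change was small included several of the most abundant. RPL13 (5234 TPM in control, log2 change -0.09), RPL41 (3434.2 TPM, -0.03) and RPLP2 were not called, all had overlapping groups, and all 3 were called lower after median centring. RPS26, one of the 5 members with the lowest control means, was 259 ± 1.78 TPM in control and 245 ± 16.7 TPM in OGT cells and was not called (-0.08, limma adjusted p = 0.271). RPL22 was 521.76, 306.73 and 331.72 TPM in control and 277.11, 251.97 and 276.56 TPM in OGT libraries. Its groups did not overlap, but it was not called as deposited (-0.48, limma adjusted p = 0.075). It was called lower after median centring (-0.87, limma adjusted p = 0.00961) and after the GC and length correction (-0.98, limma adjusted p = 0.00781).

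The paralogs in the name pattern were low or listed at 0 in these cells. RPS27L, a gene induced by p53 and a close relative of RPS27, was 21.85, 20.84 and 21.58 TPM in control and 15.22, 20.45 and 15.98 TPM in OGT libraries. It was not called as deposited (-0.31, limma adjusted p = 0.0718). It was called lower after median centring (-0.70, limma adjusted p = 0.00385), after the GC and length correction (-1.06, limma adjusted p = 0.001), under quantile normalization (-0.64), with the members left out of the total (-0.37) and without OGT replicate 2 (-0.43, limma adjusted p = 0.019). The corrected value rests on a transcript of 6434 bases, both the longest and the principal one. RPS27L was not called when scaled to the summed members (-0.04, limma adjusted p = 0.831), with a replicate block (-0.31, limma adjusted p = 0.11) or without any other single library. RPS27 was 5125.4 ± 485 and 3381.5 ± 100 TPM and fell (-0.60), so RPS27L stood at 0.39% to 0.605% of RPS27 in all libraries. RPL39L and RPL10L were listed at 0 in every library and did not pass the filter. RPL3L, the muscle form of RPL3, reached 4.88 TPM in control replicate 1 and 0.79 TPM in OGT replicate 2, was listed at 0 elsewhere and did not pass. RPS27L is thus the kept gene closest to the limit of 1 TPM and RPL3L the closest outside it.

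Falls and rises lined up with level within the family as deposited, and less so after a correction for GC content and length. Of the 26 members with a mean under 1000 TPM over all 6 libraries, 16 rose and 3 fell. That is 61.5% higher and 11.5% lower, with a median log2 change of 0.30. Across all genes tested, most of them at far lower levels, 39.1% rose and 9.70% fell, with the same median. Of the 683 non-members of 200 TPM or more 36% rose and 37.9% fell, with a median of -0.00, but these include genes above 1000 TPM. Non-members at the level of these 26 members were not counted apart. Of the 25 members between 1000 and 2500 TPM, 6 rose and 13 fell. Of the 27 at 2500 TPM or more, 1 rose and 18 fell. Spearman's rho between mean TPM and log2 change was -0.44 across the 78 members and -0.16 across all genes tested, and -0.20 across the members after the correction. Members are not independent replicates, and all points share the same 6 libraries. Of 61 non-members between 1000 and 2500 TPM 17 rose and 26 fell, with a median of -0.04 against -0.19 for the 25 members at that level. Of 40 non-members at 2500 TPM or more 12 rose and 15 fell, with a median of 0.05 against -0.34 for the 27 members. These differences were not tested.

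**Figure D4:**
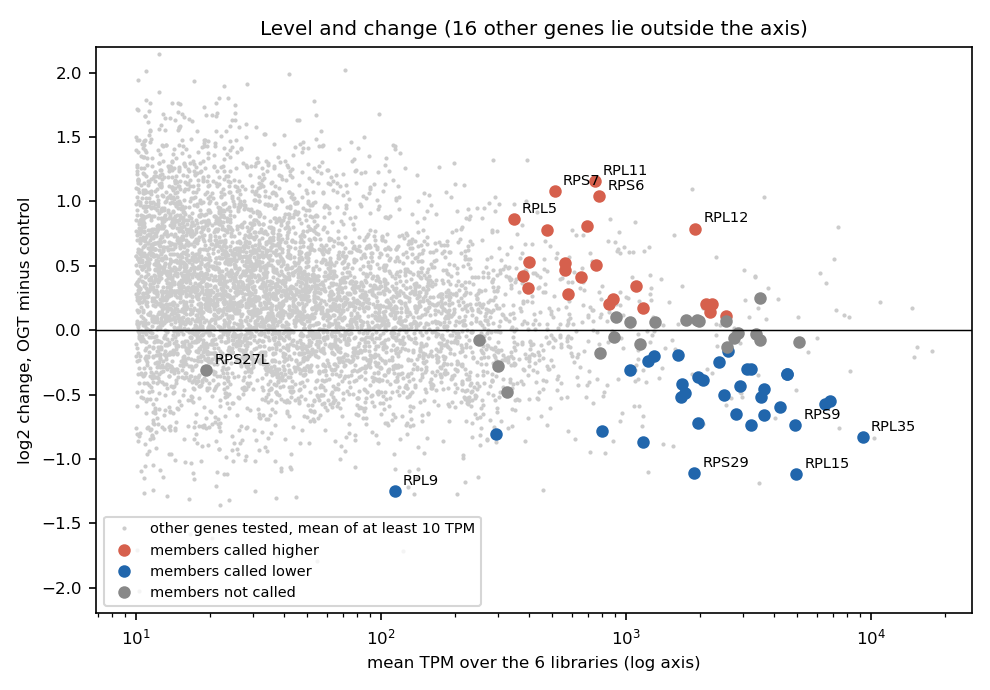
Log2 change (OGT minus control) against mean TPM over the 6 libraries on a log axis, members in colour by call and non-members of 10 TPM or more on average in light grey. Members called higher sit mostly below 1000 TPM and members called lower mostly above it.

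Across all genes tested the change followed transcript GC content and length, with Spearman's rho of -0.47 and 0.39 for the longest transcript in GENCODE release 29. Within the family it did not follow them in the same way: rho was -0.01 with GC and -0.19 with length over the 78 members, and -0.15 and 0.02 for the principal transcript. After the correction below, the members' changes did follow both, with rho of 0.40 for GC and -0.53 for length, and 0.25 and -0.29 for the principal transcript, so corrected calls in the family carry that dependence. After a trend on GC and length was subtracted within each library, 22 members were higher and 43 lower (background 28.8%, of which 16.0% higher and 12.8% lower), with a median of -0.23 against 0.03 for all genes. Of the 57 members called as deposited, 47 were called the same way, 16 higher and 31 lower, 8 lost their call and 2 were called the opposite way. These were RPL37 (from 0.20 to -0.55) and RPL14 (from 0.53 to -0.19), whose longest transcripts in the annotation, 7686 and 7072 bases, are far longer than a usual ribosomal protein message. Their principal transcripts have the same lengths and GC content. The correction by principal transcript (-0.56 and -0.21) is therefore no separate check for these 2 genes. For RPS29 the choice of transcript mattered: its corrected change was -1.87 with the longest transcript, of 7062 bases, and -0.97 with the principal one, of 677 bases, and it was called lower with both. Of the 26 members under 1000 TPM 10 were higher and 10 lower after the correction, and of the 27 at 2500 TPM or more 4 were higher and 20 lower. RPL11 (1.08), RPS7 (1.17), RPL12 (0.95), RPL21 (0.76), RPS6 (0.68), RPL5 (0.67) and RPL6 (0.66) were still called higher. RPLP2, not called as deposited, was then called higher (0.28, limma adjusted p = 0.00635).

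**Figure D5:**
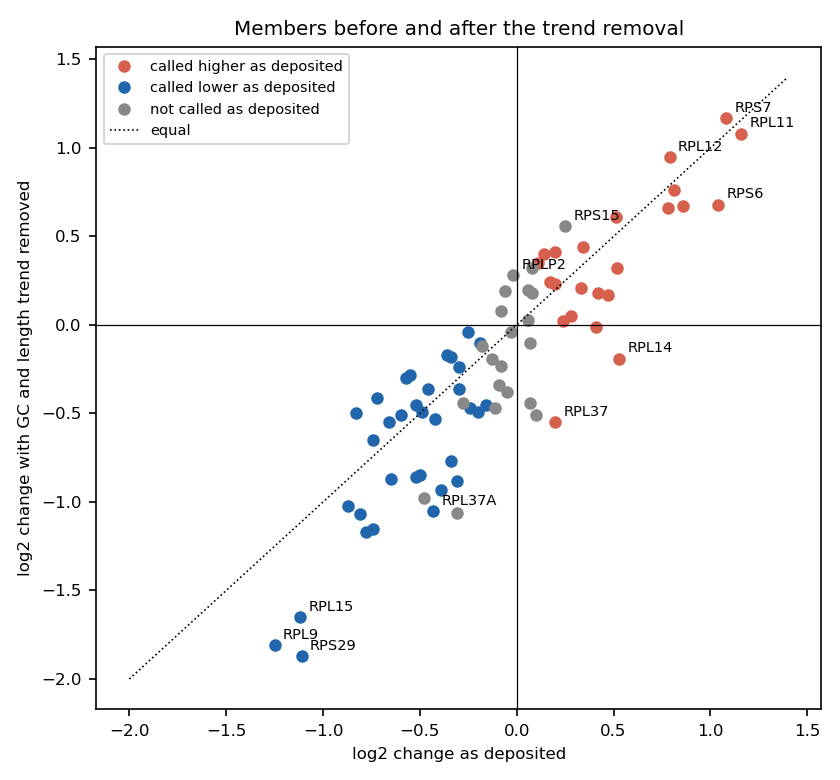
Log2 change of the 78 members as deposited (x axis) and with the GC and length trend of each library removed (y axis), coloured by the call as deposited, with the line of equality. Most members keep their side of 0, and RPL37 and RPL14 move from called higher to called lower.

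Reads of ribosomal protein genes can be shared with their many processed pseudogenes. The table holds 1393 pseudogene rows of these genes for 77 of the 78 members, of which 38 passed the filter, and 5 rows held 94.9% of their TPM. Pseudogene rows summed to 5895 to 7135 TPM in control and 5855 to 6417 TPM in OGT libraries, 3.11% to 3.95% and 3.92% to 4.09% of members and pseudogenes together. RPL23AP42 was listed at 904 ± 12.1 TPM in control, above its parent RPL23A at 351 ± 2.91 TPM, and RPL36AP37 at 1207 ± 38.3 TPM, above RPL36A at 329 ± 48.8 TPM. RPL39P3 and RPS28P7 were of the order of their parents. Levels of RPL23A, RPL36A, RPL39 and RPS28 are therefore uncertain. Adding pseudogene rows to their parents before the fit left 23 members higher and 33 lower. RPL39 was no longer called (-0.23, limma adjusted p = 0.118, against -0.42 and 0.00358 on its own), and RPL23A stayed higher (0.26).

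Ribosomal proteins outside the name pattern were split too. FAU, which encodes a ubiquitin-like protein fused to a 40S protein, fell from 2070.7 ± 26.9 to 1636.7 ± 155 TPM (log2 change -0.34). RPL7L1 (0.80) and RPL26L1 (1.07) rose, as did RPL22L1 (0.70). After median centring 1 gene of this list was higher and 4 lower, and after the GC and length correction 1 and 1. Of its 7 genes as deposited 4 rose, 1 fell and 2 were not called, among them the 40S scaffold gene RACK1 at 1877.5 ± 25.9 and 1956.1 ± 0.838 TPM (0.06, limma adjusted p = 0.103).

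Other messages with a TOP tract moved mostly upward, as called genes did in general. As deposited 11 of 18 rose (61.1%) and 3 fell (16.7%), with a median of 0.50. Among all genes tested 39.1% rose and 9.70% fell, with a median of 0.30. The list was nearly even under median centring (8 higher and 7 lower) and after the GC and length correction (8 and 6). The elongation factor gene EEF1A1 rose from 1182 ± 21.3 to 2528.4 ± 9.02 TPM (log2 change 1.10, limma adjusted p = 1.14e-05). The poly(A)-binding protein gene PABPC1 rose from 185 ± 4.04 to 368 ± 28.2 TPM (0.99) and the nucleolar protein gene NPM1 from 108 ± 6.08 to 213 ± 4.02 TPM (0.98). EEF1G, a subunit of the factor that recharges EEF1A1, fell from 3437.5 ± 79.4 to 2456.6 ± 53.5 TPM (-0.48). EEF1B2 and EEF1D, which encode its other subunits, had log2 changes of -0.78 and -0.37. All of these kept their sign and call after median centring.

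Of 13 genes that regulate TOP messages 9 rose and 2 fell as deposited, beside 39.1% higher and 9.70% lower over all genes tested. After median centring 2 of the 13 were higher and 3 lower. The 2 that fell as deposited were RPS6KB2, an S6 kinase gene (log2 change -0.23), and MLST8, which encodes a subunit of the mTOR complexes (-0.28). LARP1, which binds the tract, rose from 29.5 ± 1.54 to 53.8 ± 4.95 TPM (log2 change 0.84), and CNBP, another RNA-binding protein, from 65.8 ± 0.638 to 111 ± 7.67 TPM (0.74). After median centring LARP1 (0.46) and CNBP (0.36) were still called higher, and RPTOR (0.18) and MTOR (0.16) were not called. As deposited MTOR rose from 12.9 ± 1.15 to 19.3 ± 0.714 TPM (0.55) and its partner RPTOR from 21.6 ± 0.834 to 32.6 ± 1.94 TPM (0.57). After the GC and length correction 4 of the 13 were higher and 1 lower, with MTOR at 0.16 and not called (limma adjusted p = 0.341). Of 8 chaperones and escorts of single ribosomal proteins 3 rose and 1 fell as deposited, 2 were higher and 2 lower after the GC and length correction, and 1 was higher and 5 lower after median centring. LTV1, a 40S assembly factor, rose from 2.17 ± 0.306 to 5.87 ± 0.774 TPM (1.11), BCCIP from 4.64 ± 1.89 to 11.8 ± 1.8 TPM (1.23) and AAMP from 119 ± 3.45 to 134 ± 6.54 TPM (0.18, and -0.21 and called lower after median centring). BCCIP was not called after the correction (limma adjusted p = 0.104) or after centring (limma adjusted p = 0.0516). PDCD2L, an escort of RPS2, fell from 16.3 ± 2.49 to 9.27 ± 1.71 TPM (-0.75).

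The mitochondrial ribosome, which is built from another set of nuclear genes, gave a like picture at lower levels. Of its 78 tested genes 27 rose and 27 fell, with a median of -0.00. After median centring 12 were higher and 40 lower, and after the GC and length correction 17 and 24. The summed TPM of these genes was 8214.2 ± 142 in control and 7110.6 ± 330 in OGT cells, a ratio of 0.866, beside 0.819 for the cytosolic members. MRPL15 rose from 43.7 ± 5.83 to 118 ± 7.94 TPM (1.42), MRPL3 from 17.7 ± 0.606 to 45.3 ± 0.805 TPM (1.31) and MRPL9 from 37.4 ± 0.999 to 70.2 ± 3.78 TPM (0.89), and MRPL24 fell from 358 ± 11.7 to 235 ± 10.5 TPM (-0.60). The difference between the 2 families was not tested.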

How the data were processed

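Total RNA of 6 libraries was sequenced from TruSeq RNA libraries, per the labels' protocols. The deposited table gives each gene's TPM in every library. This unit was read from the values, since the file headers name none. The builds GRCm38 and mm10, per the submitters' processing notes, are of mouse, while the gene identifiers are human. Which aligner, counter and annotation the authors used is not given in the sources used here. Groups and replicate numbers came from the sample titles. Genes of at least 1 TPM in at least 3 libraries were tested with limma 3.58.1 (R 4.3.3) after a log2(TPM + 1) transform (eBayes with trend and robust, two-sided, Benjamini-Hochberg adjusted p threshold 0.05). The fit was also run on simulated data in which few genes changed and noise was independent. In the real data 48.8% of genes were called, so that run does not show how calls behave here. The members and lists were chosen with earlier results of these data known. Text values were given for the 12 largest called falls and rises without overlap, every member called higher, the 5 highest and 5 lowest members, stalk, 5S-binding and paralog genes, genes near the filter and up to 4 called genes per other list. Some genes this rule takes are counted with their groups and not reported here by name. RPL13, RPL41, RPL22, RPS27, RPL36A, RPL39, RPS28, RPL22L1, RACK1, EEF1B2, EEF1D, RPS6KB2, MLST8, the marker genes and pseudogenes were added after their values were seen. Alternatives covered pseudocount, filter, scaling, trends on GC and length (natural splines, 4 degrees of freedom), the variance model, single replicates and the replicate number as a block. The principal transcript and the adding of pseudogene rows were chosen after seeing the data. Depth is unknown, so no counting interval is given.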

Additional observations from a re-analysis of the deposited data

How the results depend on the processing

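Scaling moved the split of the members most. There were 7 higher and 59 lower after median centring, and 38 higher and 20 lower with libraries scaled to the same summed TPM of the members. The median log2 change of the members was -0.51 and 0.17 under these, -0.05 under quantile normalization and -0.18 with the members left out of the total. With the GC and length trend removed it was -0.23, -0.24 with the trend fitted without the members, -0.27 with the principal transcript and -0.23 with the replicate block as well. Leaving out single libraries gave -0.17 to -0.07, with 21 to 24 members higher and 32 to 36 lower. The same replicate numbers did not pair the samples (correlations of deviations -0.0194, 0.00264 and 0.0166, with 1 of 6 samples correlating best with its own number), and a replicate block gave 23 higher and 35 lower. Calls that ended without single libraries included those of RPS14 (limma adjusted p from 0.0581 to 0.103, without any library but OGT replicate 3), RPL37 (0.0934 to 0.137, without control replicate 2, control replicate 3, OGT replicate 1 or OGT replicate 2) and RPL27A (0.0539 without OGT replicate 1). With no trend or robust variance model 17 were higher and 30 lower. The cause of these moves was not tested.

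After median centring signs turned for, among others, RPL17 (-0.11), RPL19 (-0.19), RPL23A (-0.06), RPL37 (-0.19), RPS13 (-0.19), RPS16 (-0.24), RPS25 (-0.05), RPS4X (-0.15) and AAMP (-0.21). Under the trend corrections RPL14 was -0.19, -0.21 with the principal transcript and -0.14 with level as a term. RPL37 was -0.55, -0.56 and -0.46 in the same order. RPL7 was -0.01, and with the principal transcript RPS4X was -0.02. RPLP2 was 0.28 (0.29 without the members in the trend, 0.36 with level), 0.13 under quantile normalization, 0.27 scaled to the summed members and 0.01 to 0.02 without OGT replicate 2 or control replicate 1. RPS26 was 0.21 scaled to the summed members. Other TOP messages were 7 to 8 higher and 5 to 6 lower under the trend corrections (6 with the replicate block) and 7 lower after median centring. Mitochondrial ribosomal proteins were 16 to 17 higher under the trend corrections (14 with the replicate block), 12 higher under median centring and under quantile normalization, and 12 lower scaled to the summed members. Counts over all settings cover genes named by the rule above. Of these values 1152 kept direction and call, 74 lost and 16 gained a call, and 33 changed sign. Members added after their values were seen, such as RPL13, RPL41 and RPL22, are not in these counts. TPM keeps no depth, so counting error could not be given.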

Other observations

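Rows that join a member to its neighbour were listed in every library. RPL17-C18orf32 was 23.16, 15.74 and 16.62 TPM in control and 10.45, 10.42 and 10.24 TPM in OGT libraries, while RPL17 itself went from 526 ± 37.3 to 636 ± 18.5 TPM. RPL36A-HNRNPH2 was 290.18 TPM in control replicate 1 and between 41.77 and 87.84 TPM in the other 5 libraries, and RPL36A was lowest of the controls in that library (272.44 TPM, against 356.06 and 357.84). RPS10-NUDT3 was between 8.54 and 11.55 TPM throughout. Among pseudogene rows RPL38P4 was 117.02, 102.65 and 103.69 TPM in control and 28.72, 47.81 and 4.91 TPM in OGT libraries, with its parent RPL38 at 1018.9 ± 78.2 and 1062.5 ± 34.3 TPM. RPS2P5 was 1169.7 ± 39 TPM in control and 717 ± 42.3 TPM in OGT cells, moving in the direction of RPS2. Which of these rows a shared read was assigned to was not tested.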
